A study of Mus musculus with 6 samples.

Results

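Cytochrome P450 genes of families 1 to 3 (Cyp1, Cyp2 and Cyp3) were examined in mouse liver. They were taken as the probes whose only annotated gene symbol begins with Cyp and a family number from 1 to 3, followed by 1 subfamily letter and a gene number. This gave 42 genes of 16887, on 45 probes, and 3 of the genes had more than 1 probe, which were averaged. They fall into 14 subfamilies, of which Cyp2c (9 genes), Cyp2d (8), Cyp2b and Cyp2j (5 each) and Cyp3a (4) are the biggest. The rule itself uses no measured value.

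Microsomal P450s are haem enzymes that insert an oxygen atom into drugs, pollutants, steroids, bile acids and fatty acids, with electrons from NADPH passed on by P450 oxidoreductase. In liver many of them are controlled by ligand-activated receptors: AhR for Cyp1 genes, CAR for Cyp2b and Cyp2c genes, and PXR for Cyp3a genes. Several are made mostly in pericentral hepatocytes, and several differ between male and female mice through the rhythm of growth hormone.

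Liver RNA of 6 C57BL/6 mice, aged 7 weeks in the series' design text, was hybridised singly on 2-colour arrays against 1 pool of liver RNA from 6 mice kept on standard chow. Each of the 6 mice ate the HFC diet, named high fat diet in the titles, over 12 days. Mice of 1 group (HFC, n = 2) had the diet with vehicle, and from day 5 the others were given lovastatin at 30 mg/kg (n = 2) or fenofibrate at 100 mg/kg (n = 2) by mouth each day. Lovastatin inhibits HMG-CoA reductase and fenofibrate activates the fatty acid receptor PPARα. The lovastatin group follows the sample names, since the treatment text of those samples names fenofibrate. The sex of the mice is not given in the labels. Fenofibrate mice were labelled with Cy3 and the remaining mice with Cy5. For a single gene, an effect of fenofibrate and one of the dye cannot be told apart. All values below are log2 ratios of mouse over chow pool. The direction is a likely one, not a stated one, because the labels give the mouse as the first channel, and base 2 is taken by convention. The pool is 1 control sample, so the spread between chow mice is not part of any test.

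Part of the array of HFC replicate 2 is displaced: values in 4 of 8 blocks of 27 array columns lie at other positions along their rows. Of the 45 P450 probes, 23 lie in such blocks, and 21 genes had no usable value on that array, while 1 more gene lost 1 of its probes. These values were left out. Where a value for HFC replicate 2 is called put back, the block was rotated to the position at which it matched the other arrays, with correlations of 0.294 to 0.308 against -0.0337 to 0.0274 before. Lovastatin replicate 1 was the widest array, with an SD over all probes of 1.09 against 0.419 to 0.725 on the others. Spot intensities were not used here, which means that dim probes were not removed and levels were not compared between genes.

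The broadest comparison set all HFC-fed mice against the chow pool with both dye orientations weighted equally (dye-balanced comparison). In it Cyp2c55, Cyp3a25, Cyp3a11 and Cyp2j9 rose, and Cyp3a16 and Cyp2c40 fell, all by more than 1 log2 unit. These 6 of 42 genes passed a limma adjusted p of 0.05 over all features tested, and 0.566% of all 19447 features did. By direction, 4 genes were higher (0.17% of all features) and 2 lower (0.396%). At an unadjusted limma p under 0.05 there were 17 of 42 P450 genes against 10.8% of all features. The median P450 gene did not stand off from 0 (-0.08, against 0.01 over all features), with 18 genes above 0 and 24 below. The median size of the ratio, whatever its sign, was 0.25 for the P450 genes and 0.17 for all features. The calls depended on the arrays used: none of the 6 was kept without either fenofibrate array or without HFC replicate 2. Without HFC replicate 1, with 21 genes testable, none was kept either. Where 1 array of a group is left out, the remaining one is assumed to vary like the other groups. Counts from such fits, those without a lovastatin array among them, are therefore not given. Putting the displaced blocks back gave 7, where Cyp2c37 passed too, beside 191 of all features. Scaling the arrays to one spread gave 0, beside 27 of all features.

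**Figure D1:**
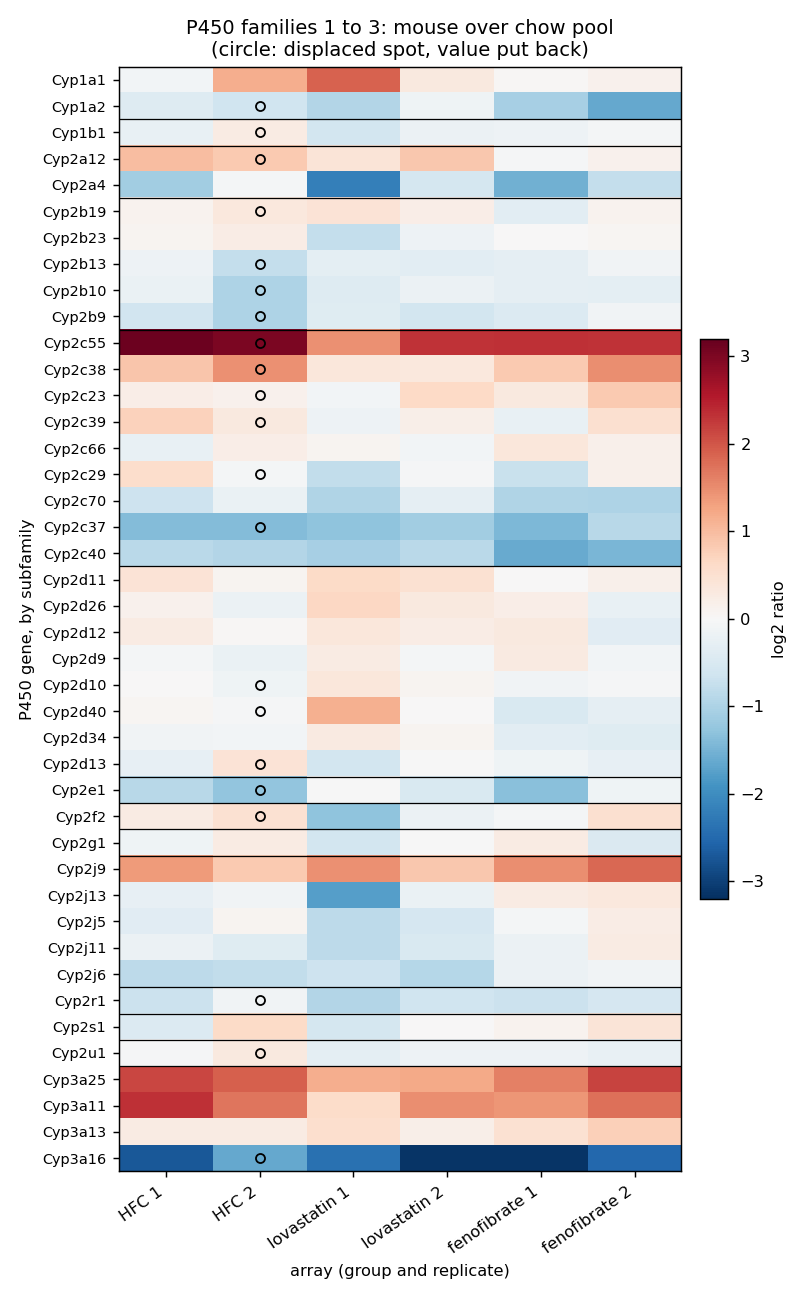
Log2 ratio of mouse over chow pool (colour scale) for each of the 42 P450 genes (rows, grouped by subfamily and ordered within it by dye-balanced mean) on each of 6 arrays (columns). Circles mark displaced spots of HFC replicate 2, drawn at the value put back. The Cyp3a25, Cyp3a11, Cyp2c55 and Cyp2j9 rows are above 0 on every array, and the Cyp3a16, Cyp2c37 and Cyp2c40 rows below 0.

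The Cyp3a genes moved in opposite directions. They encode the P450s that handle many drugs and steroids, and lie on mouse chromosome 5, where the order of the P450 genes is Cyp3a13, Cyp2w1, Cyp3a57, Cyp3a16, Cyp3a41b, Cyp3a41a, Cyp3a44, Cyp3a11, Cyp3a25 and Cyp3a59. Promoters of the 3 genes that passed the test are shown because they changed in opposite directions. They are RefSeq sequence of build GRCm38.p6, from 250 bases before to 50 bases after the start site, read on the minus strand of chr5:145879805-145880104 (Cyp3a11), chr5:146009569-146009868 (Cyp3a25) and chr5:145469674-145469973 (Cyp3a16). Capitals mark matches, on either strand, to AGGTCA or AGTTCA (the hexamers that nuclear receptors such as PXR and CAR recognise in pairs), to CAAAGTCCA (recognised by HNF4α) and to TATAAA.
Cyp3a11: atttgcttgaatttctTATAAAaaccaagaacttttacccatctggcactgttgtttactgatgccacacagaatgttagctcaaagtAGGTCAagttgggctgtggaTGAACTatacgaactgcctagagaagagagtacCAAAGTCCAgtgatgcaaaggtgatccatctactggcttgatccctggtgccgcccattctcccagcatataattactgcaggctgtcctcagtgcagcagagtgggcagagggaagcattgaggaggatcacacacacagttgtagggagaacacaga
Cyp3a25: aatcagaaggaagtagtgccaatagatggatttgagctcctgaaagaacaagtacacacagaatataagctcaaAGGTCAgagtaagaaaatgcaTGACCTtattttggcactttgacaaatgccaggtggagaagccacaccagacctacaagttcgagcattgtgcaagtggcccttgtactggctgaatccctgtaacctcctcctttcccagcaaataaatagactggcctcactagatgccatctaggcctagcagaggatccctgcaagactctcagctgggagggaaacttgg
Cyp3a16: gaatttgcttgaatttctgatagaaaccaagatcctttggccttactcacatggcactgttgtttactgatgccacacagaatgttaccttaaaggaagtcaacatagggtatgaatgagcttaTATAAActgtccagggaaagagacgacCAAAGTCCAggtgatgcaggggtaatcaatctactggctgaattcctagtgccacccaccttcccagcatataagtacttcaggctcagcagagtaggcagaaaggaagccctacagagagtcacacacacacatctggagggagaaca

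Aligned over their whole length with gaps allowed, the Cyp3a11 and Cyp3a16 windows shared 79.0% of bases. The share was 59.3% for Cyp3a11 and Cyp3a25 and 60.3% for Cyp3a16 and Cyp3a25. CAAAGTCCA stands 109 bases before the start in Cyp3a11 and 99 before it in Cyp3a16. TATAAA stands 234 bases before the start in Cyp3a11 and 126 before it in Cyp3a16. Cyp3a11 also holds AGGTCA 162 and, on the other strand, AGTTCA 142 bases before the start, and Cyp3a25 holds AGGTCA on both strands, at 176 and 155 bases before it. The Cyp3a16 window has neither hexamer. Of 32851 RefSeq promoter windows of the same length, AGGTCA occurs in 16.3%, AGTTCA in 14.0%, CAAAGTCCA in 0.475% and TATAAA in 13.6%, on either strand. Of the 36 P450 genes with a window, 13, 2, 4 and 19 hold these motifs in that order. In the windows of the 6 genes that passed, matches to different motifs overlapped in 0 cases. GCGTG, the core recognised by AhR, was searched too and occurs in 32.4% of all windows and in 6 of the 36, Cyp1a1 and Cyp1b1 among them. A match to these letters is a description of the window only.

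Cyp3a25, a Cyp3a enzyme of liver and gut, stood at 2.13 and 1.92 in the HFC mice, 1.16 and 1.22 with lovastatin, and 1.61 and 2.17 with fenofibrate. All 6 mice lay well above the pool, and the lovastatin mice lay below the other 4. Its dye-balanced ratio was 1.75 (SE 0.127, 95% interval 1.43 to 2.07, limma adjusted p = 0.0198). Cyp3a11, the main adult Cyp3a enzyme and the classic PXR target, stood at 2.33 and 1.71 (HFC), 0.58 and 1.48 (lovastatin), and 1.42 and 1.76 (fenofibrate). It too was above the pool in 6 of 6 mice, lowest in lovastatin replicate 1. Its dye-balanced ratio of 1.56 (SE 0.181, interval 1.10 to 2.01) gave a limma adjusted p of 0.0465, close to the threshold.

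Cyp3a16, a form known from fetal and female liver, stood at -2.71 in HFC replicate 1 (-1.65 put back in replicate 2), -2.38 and -3.15 with lovastatin, and -3.15 and -2.51 with fenofibrate. Every mouse lay far below the pool and the 3 groups overlapped. The dye-balanced ratio, -2.78 (SE 0.198, interval -3.31 to -2.25, limma adjusted p = 0.0270), was the lowest of the 42 genes. Cyp3a13, expressed in liver and gut, was above 0 in all 6 mice (0.25 and 0.27, 0.53 and 0.19, 0.48 and 0.77 in the same order of groups), but at 0.47 it missed the threshold (limma adjusted p = 0.235). The Cyp3a genes are close copies, and probe sequences were not used here, so reads of one gene by the probe of another were not examined. Cyp3a25, Cyp3a11 and Cyp3a16 did not pass without HFC replicate 2 or without fenofibrate replicate 2, and every ratio kept its sign. HFC replicate 2 held no usable value of Cyp3a16. Leaving that array out therefore could not change its ratio, only the shared spread and the adjustment.

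**Figure D2:**
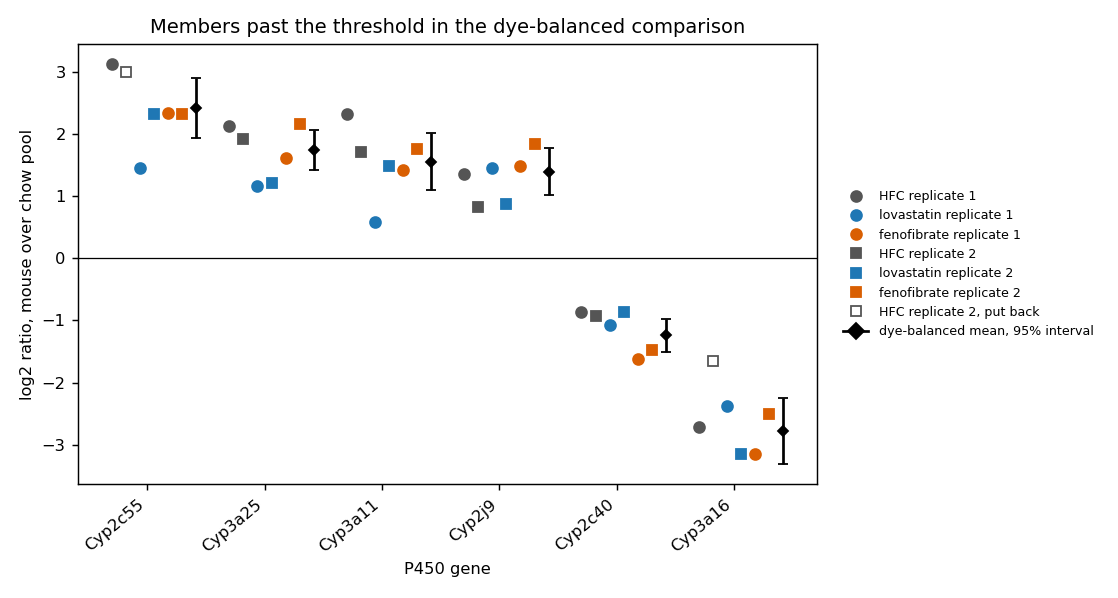
Log2 ratio of mouse over chow pool on each array (circles, replicate 1; squares, replicate 2; colours, groups) for the 6 P450 genes past the threshold, with the dye-balanced mean and its 95% interval (black). Open squares are displaced spots of HFC replicate 2 with the block put back. All points of Cyp2c55, Cyp3a25, Cyp3a11 and Cyp2j9 lie above 0 and those of Cyp2c40 and Cyp3a16 below.

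The Cyp2c genes, which oxidise arachidonic acid and other lipids beside drugs, spread most of the larger subfamilies after Cyp3a. The promoters of the Cyp2c genes that passed, one higher and one lower, are given in the same form. Both are from GRCm38.p6 of RefSeq, Cyp2c55 on the plus strand of chr19:39006769-39007068 and Cyp2c40 on the minus strand of chr19:39812765-39813064, with capitals for the same motifs.
Cyp2c55: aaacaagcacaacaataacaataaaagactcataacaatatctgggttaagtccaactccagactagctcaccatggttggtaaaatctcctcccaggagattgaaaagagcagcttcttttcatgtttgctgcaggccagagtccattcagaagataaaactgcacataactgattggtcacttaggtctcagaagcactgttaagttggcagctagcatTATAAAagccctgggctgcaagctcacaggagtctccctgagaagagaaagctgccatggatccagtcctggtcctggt
Cyp2c40: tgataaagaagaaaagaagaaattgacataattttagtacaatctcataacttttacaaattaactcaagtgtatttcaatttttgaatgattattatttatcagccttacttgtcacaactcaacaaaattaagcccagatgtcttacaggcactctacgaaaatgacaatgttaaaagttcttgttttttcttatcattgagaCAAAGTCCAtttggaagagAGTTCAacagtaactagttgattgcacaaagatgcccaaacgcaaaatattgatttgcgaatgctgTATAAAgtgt

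Cyp2c55 holds TATAAA 29 bases before the start and none of the other motifs searched. Cyp2c40 holds CAAAGTCCA 45 and AGTTCA 26 bases before the start, and its TATAAA lies after the start, at base 41. Cyp2c55, an arachidonic and linoleic acid hydroxylase inducible through CAR and PXR, stood at 3.13 in HFC replicate 1 (3.00 put back in replicate 2), 1.46 and 2.32 with lovastatin, and 2.34 and 2.32 with fenofibrate. With the direction read as likely, it was the highest P450 gene, with a dye-balanced ratio of 2.42 (SE 0.180, interval 1.94 to 2.90, limma adjusted p = 0.0316). With the fenofibrate sign turned the ratio was 0.09 and no longer passed (limma adjusted p = 0.936). The HFC values lay above all 4 drug-treated mice. Cyp2c40, a female-predominant arachidonic acid hydroxylase, stood at -0.86 and -0.93 (HFC), -1.07 and -0.87 (lovastatin) and -1.62 and -1.47 (fenofibrate). It was below the pool in 6 of 6 mice and lowest in the fenofibrate mice, with a dye-balanced ratio of -1.24 (SE 0.105, interval -1.50 to -0.97, limma adjusted p = 0.0218). Neither Cyp2c55 nor Cyp2c40 passed without HFC replicate 2. That array held no usable value of Cyp2c55, so leaving it out could not change the Cyp2c55 ratio.

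Cyp2c37, an arachidonic acid epoxygenase and CAR target, was as far below the pool as Cyp2c40. It stood at -1.40 in HFC replicate 1 (-1.40 put back in replicate 2), -1.29 and -1.11 with lovastatin, and -1.44 and -0.89 with fenofibrate. The ratio of -1.23 (SE 0.150) missed the threshold with HFC replicate 2 left out (limma adjusted p = 0.0819) and passed with its block put back (0.0206). Cyp2c70, which makes the muricholic acids of mouse bile, was below 0 in all 6 mice (-0.66 and -0.22, -0.97 and -0.29, -0.97 and -0.99), with a dye-balanced ratio of -0.76 and a limma adjusted p of 0.144. Cyp2c29, another CAR-inducible epoxygenase, had no common direction, at 0.56 (-0.07 put back), -0.78 and -0.04, and -0.72 and 0.16. The other Cyp2c genes, Cyp2c23, Cyp2c38, Cyp2c39 and Cyp2c66, had dye-balanced ratios from 0.12 to 0.89. Cyp2c38, named after its values were seen, led them and was above 0 in all mice (limma adjusted p = 0.159).

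Genes of the Cyp2j subfamily, epoxygenases of arachidonic acid, also split. Cyp2j9 stood at 1.36 and 0.83 (HFC), 1.45 and 0.87 (lovastatin) and 1.48 and 1.84 (fenofibrate), above the pool in 6 of 6 mice. Its dye-balanced ratio was 1.39 (SE 0.151, interval 1.01 to 1.77, limma adjusted p = 0.0402, and 0.112 without HFC replicate 2). Cyp2j6 was below 0 in all 6 mice, at -0.83 and -0.78, -0.66 and -0.91, and -0.18 and -0.11, nearest to the pool in the fenofibrate mice (dye-balanced -0.47, limma adjusted p = 0.193). Cyp2j5, abundant in liver and kidney, stood at -0.36 and 0.09, -0.85 and -0.55, and -0.07 and 0.24, so that only the lovastatin mice were both clearly below 0. Cyp2j11 and Cyp2j13 had dye-balanced ratios of -0.22 and -0.15.

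**Figure D3:**
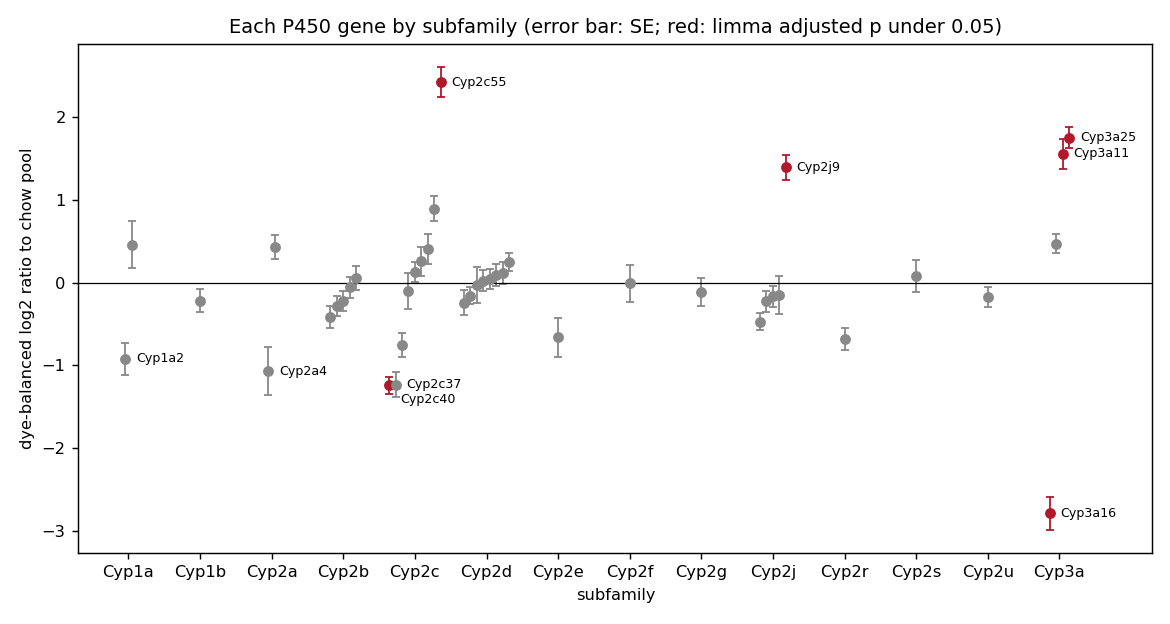
Dye-balanced log2 ratio to the chow pool (vertical axis) of each of the 42 P450 genes, with its SE, by subfamily. Red points passed a limma adjusted p of 0.05. Cyp3a genes run from -2.78 to 1.75 and Cyp2c genes from -1.24 to 2.42, while Cyp2d genes lie between -0.24 and 0.25.

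No gene of the other subfamilies passed. In the Cyp1 family, whose members are induced by aromatic pollutants through AhR, Cyp1a2 was below the pool in every mouse. It stood at -0.42 (-0.65 put back), -0.93 and -0.14, and -1.07 and -1.65, lowest in the fenofibrate mice, with a dye-balanced ratio of -0.92 (SE 0.195, limma adjusted p = 0.219). Cyp1a1 ranged widely within groups (-0.08 and 1.17, 1.90 and 0.32, 0.03 and 0.14). Cyp1b1 stood at -0.25 (0.27 put back), -0.60 and -0.19, and -0.17 and -0.06.

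Cyp2b10, the gene most used as a marker of CAR activity, stood at -0.22 (-1.0 put back), -0.41 and -0.19, and -0.28 and -0.32. It was thus below the pool in all mice while Cyp2c55 and Cyp3a11 were above it, but its ratio of -0.28 did not pass (limma adjusted p = 0.528). Cyp2b9 (-0.42) and Cyp2b13 (-0.22), forms of female liver, were likewise below 0 in every mouse, and Cyp2b19 (0.05) and Cyp2b23 (-0.06) lay near 0. Cyp2a4, a steroid hydroxylase of female liver, stood at -1.12 and -0.07, -2.19 and -0.57, and -1.53 and -0.77. All 6 values were below 0 but spread over more than 2 log2 units, and the dye-balanced ratio of -1.07 (SE 0.291) had a limma adjusted p of 0.279. Cyp2a12, which hydroxylates steroids and bile acids, was at 0.98 (0.85 put back), 0.40 and 0.86 in the HFC and lovastatin mice, but at -0.03 and 0.13 with fenofibrate.

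Cyp2e1, the ethanol and paracetamol oxidising enzyme, stood at -0.88 (-1.26 put back), -0.02 and -0.48, and -1.35 and -0.15. It was below 0 in every mouse with little agreement between replicates (dye-balanced -0.66, limma adjusted p = 0.444). Cyp2r1, the vitamin D hydroxylase of liver, was steadier, at -0.70 (-0.12 put back), -0.93 and -0.65, and -0.69 and -0.54, with a dye-balanced ratio of -0.68 (limma adjusted p = 0.183). Cyp2f2, which activates naphthalene in lung, ran from -1.29 in lovastatin replicate 1 to 0.50 in fenofibrate replicate 2. The 8 Cyp2d genes, relatives of the human debrisoquine hydroxylase, stayed near the pool, from -0.24 (Cyp2d13, a transcribed pseudogene in RefSeq) to 0.25 (Cyp2d11, above 0 in all 6 mice). Cyp2d9, a male-predominant steroid hydroxylase, was at 0.04. Cyp2s1 (0.08), Cyp2g1 (-0.12) and Cyp2u1 (-0.17) complete the set.

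Across the whole set, 7 of 42 genes were above the pool in every mouse with a value (7.32% of all features) and 15 below it in every such mouse (7.11%). With the displaced blocks put back, so that each gene had 6 values, 7 were above (6.09%) and 12 below (5.84%). The genes below were Cyp1a2, Cyp2a4, Cyp2b9, Cyp2b10, Cyp2b13, Cyp2c37, Cyp2c40, Cyp2c70, Cyp2e1, Cyp2j6, Cyp2r1 and Cyp3a16.

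Sorted by known control, the CAR or PXR inducible P450s did not move as one. Of 6 measured of 9 listed, 2 rose (Cyp2c55 and Cyp3a11), beside 0.17% of all features, and 0 fell (0.396%). The median was 0.18, beside 0.01 over all features. Of 9 listed female-predominant P450s, 6 were matched by symbol. All 6 were below 0, with a median of -0.74, beside 48.8% of all features below 0. Of them 2 fell, Cyp2c40 and Cyp3a16, beside 0.396% of all features. Cyp3a41a, a female-predominant form listed as Cyp3a41, was not matched, and the rule leaves it out by the form of its symbol. It was above 0 in 6 of 6 mice (dye-balanced 1.29, limma adjusted p = 0.0389), opposite to these 6 genes. Of 2 male-predominant genes and 4 of 5 AhR-inducible genes, none passed adjusted limma p in any of the 6 comparisons; Cyp1a2 was the one with an unadjusted limma p under 0.05 in the dye-balanced comparison (0.00739). Of 17 listed genes that oxidise arachidonic acid, 12 were matched by symbol. Among these Cyp2c55 and Cyp2j9 rose, beside 0.17% of all features, and Cyp2c40 fell (0.396%). Their median was -0.16, beside 0.01 over all features.

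Of 29 measured of 36 listed other targets of CAR, PXR and AhR, 21 were above 0, with a median of 0.56, beside 51.1% of all features above 0 and a median of 0.01. The 3 that rose, beside 0.17% of all features, were the glutathione transferases Gstm3 (2.22), Gstm1 (2.13), and Ephx1, microsomal epoxide hydrolase (1.36). Sult1e1, the oestrogen sulfotransferase, fell (-2.30). Ephx1 was even across mice, from 1.08 to 1.52, whereas Gstm1 stood at 0.91 in lovastatin replicate 1 and at 2.05 to 2.87 in the rest.

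Regulators of P450 transcription had a median of -0.02, and 0 of 21 measured of 22 passed in the dye-balanced comparison. The smallest p-values were those of Ghr, the growth hormone receptor (-0.64), Nr1i2, which encodes PXR (0.75), Nr0b2, the bile acid induced repressor SHP (0.67), and Ppargc1a (-0.56), with limma adjusted p from 0.135 to 0.296. Nr1i2 stood at 1.16 (1.41 put back), 0.22 and 0.41, and 0.79 and 0.72, above the pool in every mouse. Electron donors and haem enzymes had a median of 0.02 with 0 of 15 measured of 17 past the threshold. The smallest p-values were those of the cytochrome b5 Cyb5b (-0.67), its reductase Cyb5r3 (-0.56), Blvrb (0.47) and Fech, ferrochelatase (0.26).

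Markers of pericentral hepatocytes, the cells in which several of these P450s are made, were measured on the same arrays. Of 9 markers that are not P450s, 8 were below 0, beside 48.8% of all features, and 2 fell, beside 0.396% of all features: Slc1a2, a glutamate transporter (-1.71), and Gulo (-1.33). Glul, glutamine synthetase (-1.20), and Oat (-1.51) had limma adjusted p of 0.0562 and 0.0650. The median of the list on each array lay between -0.87 and -0.68 for the HFC and lovastatin mice and at -1.50 and -1.40 for the fenofibrate mice. Its part in the lower values of Cyp1a2, Cyp2c37, Cyp2e1 and Cyp2a4 was not tested, and in whole liver fewer cells of a type and less RNA per cell cannot be told apart. Of 7 periportal markers none passed (median -0.11). Nor did any of 4 hepatocyte markers (median -0.69), which were Ttr (-0.98), Alb (-0.73), Apoa1 (-0.66) and Apob (0.18). Markers of Kupffer cells, cholangiocytes, endothelial cells, stellate cells and lymphocytes had medians from -0.20 to 0.02 with 0 past the threshold. Ratios without intensities do not show whether a marker was present.

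**Figure D4:**
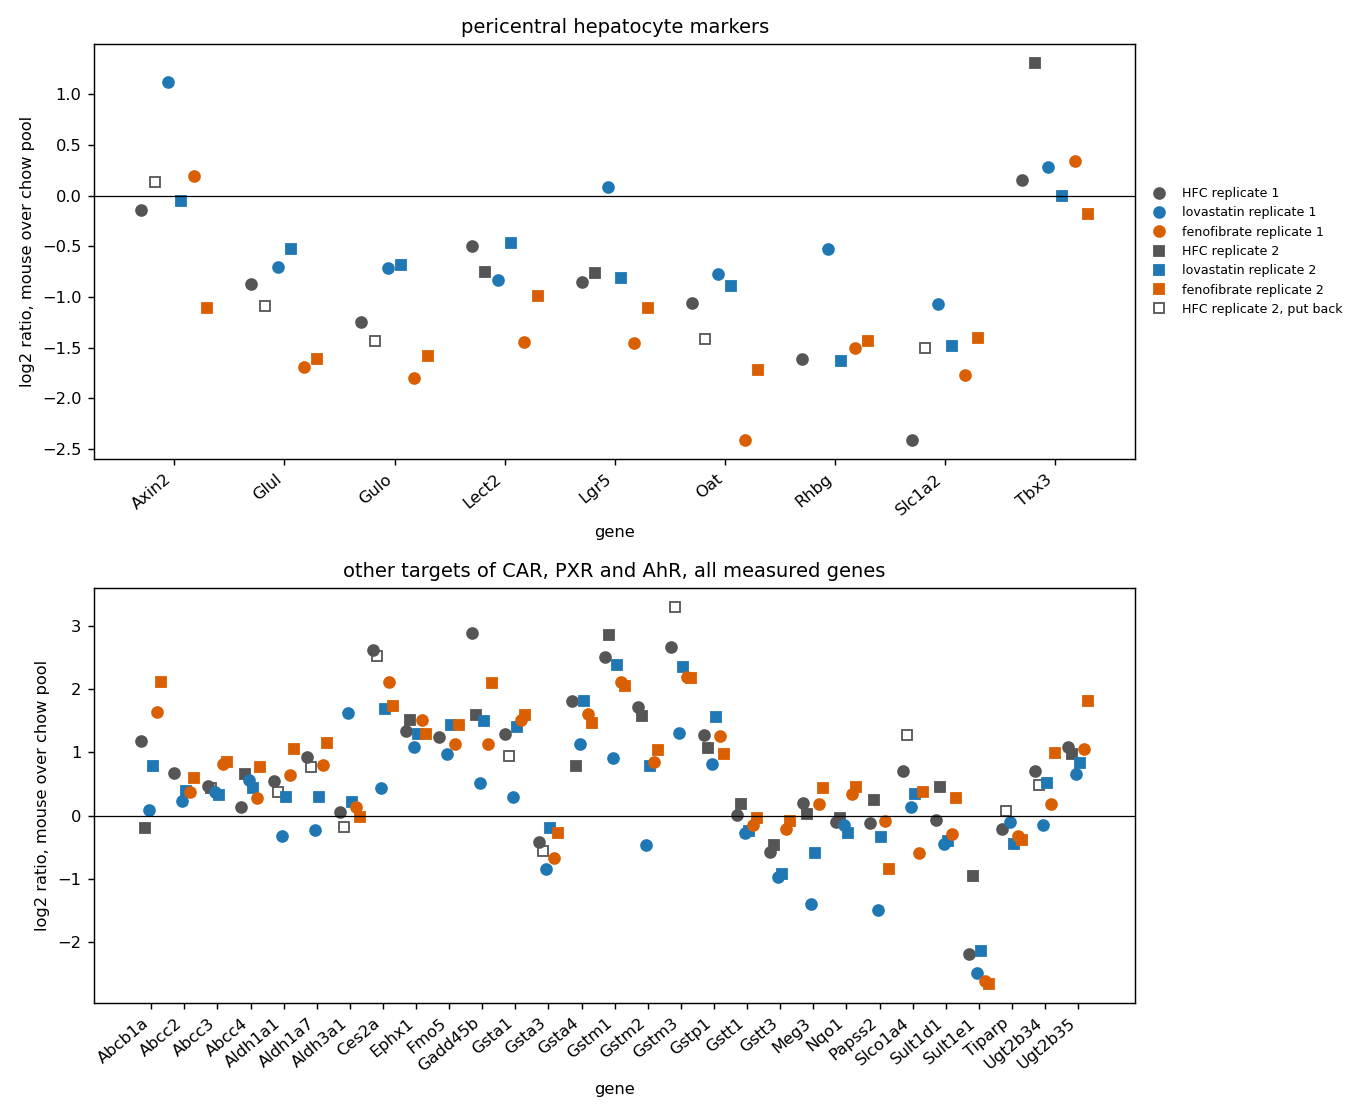
Log2 ratio of mouse over chow pool on each array for the pericentral hepatocyte markers (upper panel, 9 genes) and the other targets of CAR, PXR and AhR (lower panel, 29 genes), in alphabetical order, with circles for replicate 1, squares for replicate 2 and open squares for values put back. Slc1a2, Gulo, Glul and Oat lie below 0 in every mouse, and Ephx1, Gstm1 and Gstm3 above.

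Set separately against the pool, no group gave a P450 gene past the adjusted threshold. For HFC alone 0 of 42 genes and 0% of 19499 features passed limma's adjusted p, and 10 genes had an unadjusted p under 0.05 (4.73% of all features). For lovastatin 0 of 42 passed (0% of 19501), with 16 at the unadjusted level (10.6%). For fenofibrate 0 of 42 passed (0.0616% of 19470 features), with 12 at the unadjusted level (7.63%). Without lovastatin replicate 2, lovastatin is replicate 1 alone and is assumed to vary like the other groups. A count from that fit is not set beside these. The P450 gene of smallest p was Cyp3a25 for HFC and fenofibrate (limma adjusted p = 0.177 and 0.106) and Cyp3a16 for lovastatin (0.219). Medians of the 42 genes were -0.02, -0.27 and -0.06 for HFC, lovastatin and fenofibrate, against 0.01, -0.01 and -0.01 over all features, and replicates of a group correlated over the P450 genes with r of 0.815 (HFC, 21 genes), 0.748 (lovastatin) and 0.906 (fenofibrate), given as a description.

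Lovastatin against the HFC diet alone, both with the mouse in Cy5, asked whether the statin shifted these genes. No P450 gene passed (0% of 19485 features), and 1 gene had an unadjusted limma p under 0.05, against 2% of all features. That gene was Cyp3a25, lower by 0.84 on the log2 scale with lovastatin (difference -0.84, interval -1.57 to -0.10, limma adjusted p = 0.972). Cyp3a11 differed by -0.99 (interval -2.04 to 0.06) and Cyp2c55 by -1.24 (interval -2.51 to 0.03). For each of these 3 genes both lovastatin mice lay below both HFC mice, with the Cyp2c55 value put back in HFC replicate 2. Such separation, with the blocks put back, occurred downward in 10 of 42 genes (17% of all features) and upward in 7 (13.7%). The Cyp3a16 difference was -0.06 and its interval, -1.45 to 1.34, leaves room for changes of either sign.

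Fenofibrate against the HFC diet alone gave 0 of 42 genes past the adjusted limma threshold (0% of 19456 features) and 2 at an unadjusted p under 0.05 (2.88%). Cyp2j6 was higher with fenofibrate (difference 0.66, interval 0.05 to 1.27) and Cyp2c40 lower (-0.65, interval -1.26 to -0.04), both with a limma adjusted p of 1. Cyp1a2 differed by -0.94 (interval -2.31 to 0.43) and Cyp2a12 by -0.93 (interval -1.92 to 0.06). Groups did not overlap, with the blocks put back, in 6 genes upward (18.8% of all features) and 10 downward (21.3%). The dyes of the arrays differ in this comparison, so fenofibrate and dye cannot be told apart here. The median interval reached 0.95 on either side of the difference for both drugs.

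**Figure D5:**
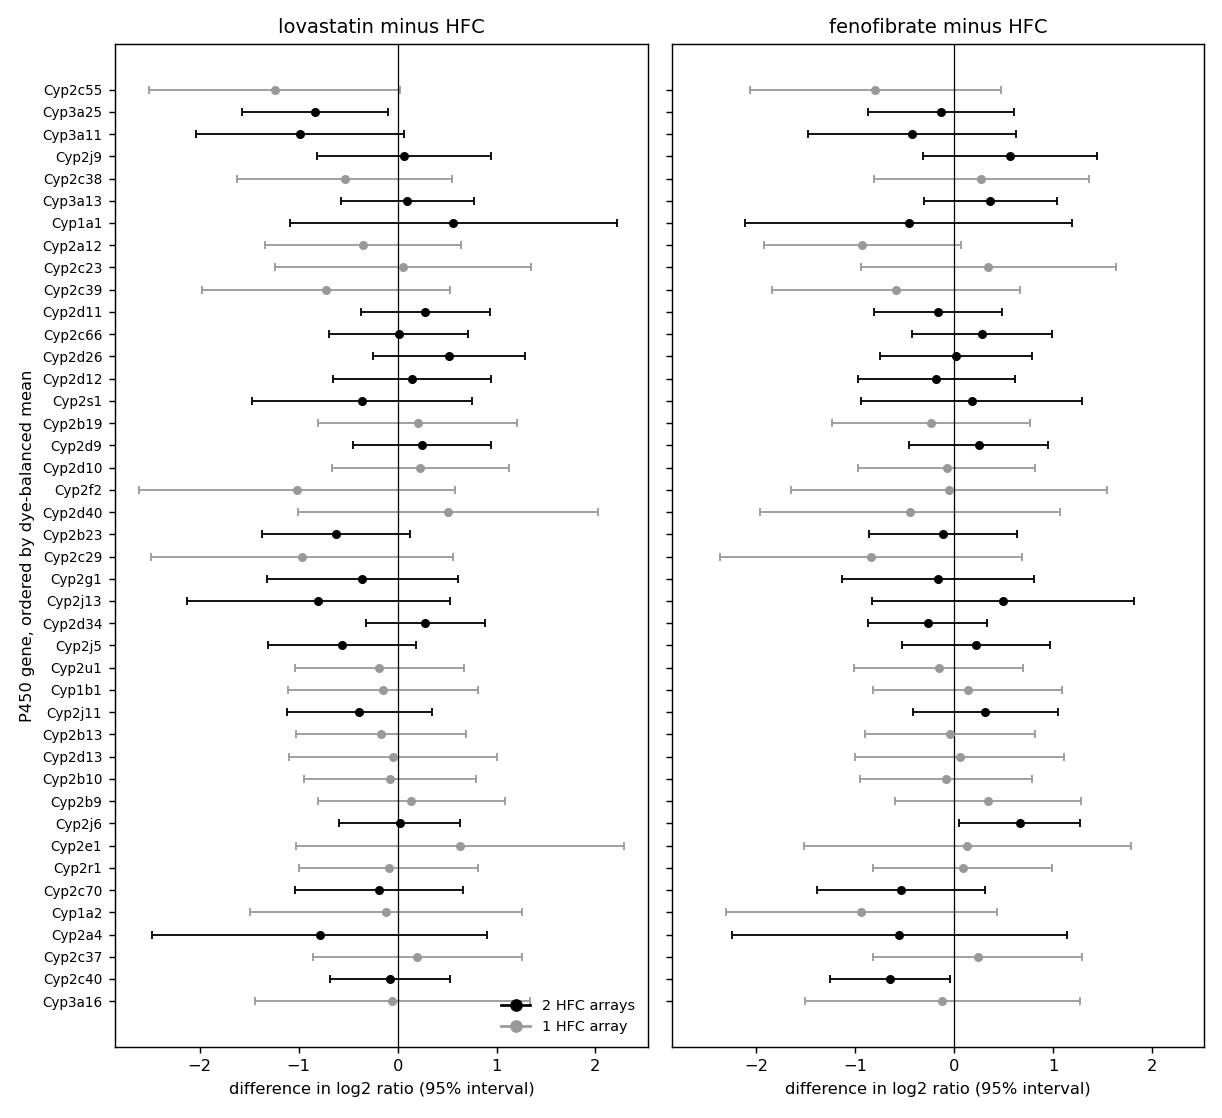
Difference in log2 ratio between lovastatin and HFC mice (left) and between fenofibrate and HFC mice (right) with its 95% interval, for each of the 42 P450 genes ordered by dye-balanced mean; grey marks genes with 1 usable HFC array. On the left the Cyp3a25 interval lies below 0 before adjustment, on the right those of Cyp2j6 and Cyp2c40 lie off 0.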

How the data were processed

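Each spot of each array has 1 deposited value, which was read as a log2 ratio of the 2 channels, mouse over chow pool. How the authors scanned, corrected and normalized the arrays is not given in the sources used here. Of 22575 spots, 726 had no value and 561 were repeated controls, so 21288 probes were used. The platform annotation named 1 gene for 18658 probes. Probes of a gene were averaged, and unnamed probes were kept single.

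Displaced spots of HFC replicate 2 (50.3% of probes) were set missing. Group means over all 6 arrays were fitted with limma 3.58.1 in R 4.3.3. Features with values on all 6 arrays had 3 residual degrees of freedom, and those with missing values had fewer. The Benjamini-Hochberg adjustment covered every feature tested, and the threshold was 0.05. In the dye-balanced comparison fenofibrate has a weight of 0.5, and the other groups have 0.25 each. The fit was tested on simulated data. Replicates are separate mice per the labels, and precision is limited by how few arrays there are.

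Members, lists and comparisons were chosen with earlier results of these data known. Values on some or all arrays, or the dye-balanced ratio alone, are given for 31 P450 genes. These are the genes past the threshold, the 5 of smallest p in each comparison, the highest and lowest of each subfamily and a fixed set (20 of 23 measured). The same holds for up to 4 genes of smallest p in each other list. Other settings were centring, scaling, quantile normalization, array weights, other probe summaries, a robust prior, a replicate block, removal of noisy features, leaving out each array, fits limited to the compared arrays, turning the fenofibrate sign, and other treatments of the displaced spots. Promoters were read with Python 3.11.15 and pandas 2.3.3 from a RefSeq table, which matched 36 of 42 genes, and figures were drawn with matplotlib 3.10.9.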

Additional observations from a re-analysis of the deposited data

Results flagged for a closer look

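In 5 of 42 P450 genes every mouse of 1 group lay on one side of 0 and every mouse of another on the opposite side, with the displaced spots left out. Over all features with values to compare, 19.2% showed this for at least 1 pair of groups, and 13.9% for lovastatin and fenofibrate, where all 5 genes showed it. The P450 genes thus did not show it more often than features at large. HFC could be compared in 21 of the 42 P450 genes. With the displaced blocks put back it could be in all 42, and Cyp2f2 made a sixth gene, at 0.27 and 0.49 (put back) in the HFC mice and -1.29 and -0.20 with lovastatin (24% of all features for at least 1 pair). Differences between fenofibrate and lovastatin were not tested, and those against HFC did not pass limma's adjusted threshold.

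Cyp2b23 was at 0.08 and 0.23 in the HFC mice, -0.77 and -0.17 with lovastatin and 0.01 and 0.07 with fenofibrate, so that the lovastatin mean was -0.63 from HFC and the fenofibrate mean 0.51 from lovastatin. Cyp2d34 was at -0.11 and -0.08, 0.29 and 0.08, and -0.34 and -0.39, with differences of 0.28 (lovastatin minus HFC) and -0.55 (fenofibrate minus lovastatin). Cyp2j13 was at -0.27 and -0.13, -1.77 and -0.22, and 0.27 and 0.33, with differences of 0.49 (fenofibrate minus HFC) and 1.29 (fenofibrate minus lovastatin). These are averages of 2 Cyp2j13 probes, which stood at 0.28 and -0.72 in lovastatin replicate 2. The contrast of lovastatin with fenofibrate thus holds for the average and not for each probe. Fenofibrate minus lovastatin was -0.31 for Cyp2d10 and -0.96 for Cyp2d40, where lovastatin replicate 1 alone stood at 1.14 and replicate 2 at 0.02. Dye orientation differs between the fenofibrate mice and the others.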

How the results depend on the processing

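The count of P450 genes past the threshold in the dye-balanced comparison (6) was 3 with displaced spots as deposited. It was 0 with arrays scaled to one spread and 0 with the fenofibrate sign turned. Calls were also lost when 1 HFC or 1 fenofibrate array was left out. No pairing of mice by replicate number was seen (correlations of deviations from -0.024 to 0.031), which does not show that there was none. With the replicate block the count was 0. Against the pool, the HFC count (0) became 1 without the noisiest 10% of features, and 1 with the displaced blocks put back and lovastatin replicate 1 left out, a setting chosen after seeing the data. The lovastatin count (0) became 1 without the noisiest features and ranged from 0 to 11 over left-out arrays. The fenofibrate count (0) became 5 with array weights, 5 without the noisiest features and 4 with blocks put back and lovastatin replicate 1 left out. Lovastatin against HFC ranged from 0 to 1 over left-out arrays, and fenofibrate against HFC gave 1 with the sign turned. The causes of these moves were not tested. With the fenofibrate sign turned, dye-balanced ratios reversed to 0.31 for Cyp2c40, -0.27 for Cyp2j9, -0.033 for Cyp3a11, 0.046 for Cyp3a16 and -0.14 for Cyp3a25, and Cyp2c55 went from 2.42 to 0.09. Over all features the dye-balanced count of 110 was 67 as deposited, 191 put back, 27 scaled and 190 with quantile normalization. It was 230 with array weights and 0 with the block. Counts from fits with 1 array of a group left out are not given, since the spread of that group is then taken from the others.

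Fits on the compared arrays alone could not be made for the dye-balanced comparison, which uses every array. With 2 mice a group and no intensities, a P450 gene that did not pass is not shown to be unchanged.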

Other observations

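The rule leaves out 2 measured genes of these families by the form of their symbols. Cyp3a41a, a female-predominant form that lies between Cyp3a16 and Cyp3a11 in the order of P450 genes, stood at 1.31 and 1.12 in the HFC mice, 0.34 and 0.65 with lovastatin, and 1.40 and 2.03 with fenofibrate. Its dye-balanced ratio was 1.29 (SE 0.138, limma adjusted p = 0.0389), on the side of Cyp3a11 and Cyp3a25 and opposite to Cyp3a16. It was singled out after its values were seen. Cyp2ab1 had a dye-balanced ratio of -0.57 (limma adjusted p = 0.660).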
